A study of Mus musculus with 6 samples.

Results

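The PRAME-like genes of the mouse were followed in embryonic stem (ES) cells that had received an siRNA against BRG1. The members were the genes BC061212 and A430089I19Rik, now named Pramel37 and Pramel39, every gene whose name in the array files begins with Prame, and every gene described there as a preferentially expressed antigen in melanoma. This gave 8 genes with 1 probe each, out of 27962 gene names with 41174 probes. Pramel37 and Pramel39 were chosen by their measured values: both were selected on the higher signal of their probes with BRG1 siRNA in these same arrays, so that rise is given as a description with no test. Of the others, 5 genes (Pramel1, Pramel4, Pramel6, Pramel7 and Pramel13, the last under its older name Pramef12) were matched by name and 1, Pramel on chromosome X, by description. A further 9 genes that carry a Prame symbol today, or a PRAME description, stand under older names in the files and are called relatives here.

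The cells were mouse ES cells, pluripotent cells of the early embryo grown in culture, from an F1 of strains 129 and C57BL/6. One group of 3 arrays came from cells treated with scrambled siRNA, and the other group of 3 from cells treated with siRNA against BRG1, both for 48 h. BRG1, encoded by Smarca4, is the ATPase of SWI/SNF chromatin remodelling complexes. The labels name no other genetic change or agent in either group, and since they leave the origin of the replicates unsaid, the spread behind each p-value may be technical rather than between cultures.

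PRAME-like proteins are leucine-rich-repeat proteins. In mammals the family has grown into large gene clusters and is expressed mainly in the germ line and the early embryo, while human PRAME is a cancer-testis antigen that is silent in most adult tissues. PRAME proteins can act as substrate receptors of CUL2 ubiquitin ligases, and human PRAME has been described as a repressor of retinoic acid receptor signalling. In mouse ES cells, Pramel7 is known to bring about the degradation of UHRF1, a factor needed to maintain DNA methylation, and Pramel7 is a target of LIF and STAT3 signalling.

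The probes that the results turn on are shown first, because the members of this family are similar to each other and the sequence decides which transcripts a signal can stand for. All are 60-base oligonucleotides read 5′ to 3′, with positions in the mm7 build as the files give them. The files list the positions of the Pramel37, LOC625240 and Pramel7 probes in descending order and those of Pramel39 and Pramel12 in ascending order. LOC625240, described in the files as similar to a PRAME family member, and Pramel12, a family gene of chromosome 4, are relatives.
Pramel37, chr5:94053736-94053795: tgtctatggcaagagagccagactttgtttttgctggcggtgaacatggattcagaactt
Pramel39, chr5:94572651-94572710: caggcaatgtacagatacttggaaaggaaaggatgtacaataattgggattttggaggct
LOC625240, chr5:94730332-94730391: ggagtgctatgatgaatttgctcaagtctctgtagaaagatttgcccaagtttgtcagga
Pramel7, chr2:87332937-87332996: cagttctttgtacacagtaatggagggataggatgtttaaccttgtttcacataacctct
Pramel12, chr4:142833053-142833112: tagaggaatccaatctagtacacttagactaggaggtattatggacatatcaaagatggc

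The 3 chromosome 5 probes above do not resemble each other. The longest run of bases shared by Pramel37 and Pramel39 was 5, by Pramel39 and LOC625240 5, and by Pramel37 and LOC625240 6. Among all 136 pairs of family probes the longest shared run was 8 bases and the smallest edit distance was 28 of 60 bases. No other probe of the array shared 20 bases with any of the 3, the longest shared run being 13, 13 and 14 bases for Pramel37, Pramel39 and LOC625240. Each of the 3 probes is listed in the files with 4 transcripts, 3 of them from Ensembl. None of the listed transcripts was common to a pair of these probes. Such short lists cannot show that the 3 probes detect different transcripts, since unlike probes can lie in different parts of near-identical transcripts. Each signal may add up several near-identical family transcripts, and the 3 signals may share some of them. A probe is named here by the 1 gene the files give.

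In the mm7 coordinates the Pramel37 and Pramel39 probes lie 518.915 kb apart, and the LOC625240 probe lies 157.681 kb beyond Pramel39. In RefSeq's GRCm38.p6 annotation the order along chromosome 5 is Pramel37, Pramel38, Pramel40, Pramel39, all protein-coding. There the promoters of Pramel37 and Pramel39 start at 94070496 and 94306747, closer together than their probes in mm7. That annotation holds 48 protein-coding genes with a Prame symbol, 24 on chromosome 4, 18 on chromosome 5, 3 on chromosome X, 2 on chromosome 2 and 1 on chromosome 12. Only 16 of the 48 had a probe under their own symbol on the array. The others could be measured only where a probe under another name also detects them, which was not tested.

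The arrays and the knockdown were examined before the members. On each array, 60.9% to 75.3% of spots were well above background, the scanner software's test of a spot against its local background. Below, a level is the log2 signal of a probe above or below the 75th percentile on its array, and levels of different probes are not comparable. Each of the 3 Smarca4 probes was lower with BRG1 siRNA on every array, at 54.7%, 65.8% and 66.2% of the control signal (limma adjusted p = 0.00181, 0.00455 and 0.00861). The first of these had levels of 4.24 to 4.30 in controls and 3.33 to 3.50 with BRG1 siRNA. On slide 1 alone none of the 3 passed, and with slide as a block 1 of them did. The probe at 66.2% also lost its call with spike-in scaling. Of 8 ES cell markers all were above background in both groups, with Nanog and Utf1 raised 1.33- and 1.35-fold and Pou5f1 lowered 1.25-fold. These calls of Nanog, Utf1 and Pou5f1 were each lost in 9 or 10 of 18 alternative settings. A probe was tested where all 3 arrays of either group had it well above background, which held for 26257 probes. Of these 5154 (19.6%) passed the threshold of 0.05 after Benjamini-Hochberg adjustment, 2259 (8.6%) as rises and 2895 (11%) as falls. Rises thus made up 43.8% of the calls, a share that became 86.2% when spike-in probes set the scale of each array and the median change of all probes went from -0.03 to 0.17 (log2). Slide 1 carried the 3 control arrays together with BRG1 siRNA replicate 1, and slide 2 carried the other two BRG1 siRNA arrays.

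Pramel37 gave processed signals of 106, 126 and 131 on the control arrays and 444, 388 and 364 on the BRG1 siRNA arrays. Every BRG1 siRNA array was above every control array, and replicate 1, which shares a slide with the controls, was the highest. As a level, Pramel37 went from -4.13 ± 0.13 (SD, n = 3) to -2.37 ± 0.09 (SD, n = 3), a difference of 1.77 ± 0.08 (SE, log2) or 3.40-fold.

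Pramel39 gave signals of 106, 117 and 110 on the control arrays and 380, 295 and 264 on the BRG1 siRNA arrays. The groups again did not overlap, and again the slide 1 replicate was the highest of the 3. The level went from -4.25 ± 0.06 (SD, n = 3) to -2.73 ± 0.21 (SD, n = 3), a difference of 1.52 ± 0.11 (SE, log2) or 2.88-fold. In all 26257 tested probes only 58 (0.221%) were at least 2-fold higher with BRG1 siRNA, and since both genes were chosen for this rise, nothing is read from their place among them.

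Both differences were smaller with normexp background correction. That setting starts from the mean spot signal before the scanner software's own correction, and adds an offset of 50 after correcting it. Why the differences were smaller was not tested. There the difference was 1.22 (2.32-fold) for Pramel37 and 0.99 (1.99-fold) for Pramel39. On slide 1 alone, with 1 BRG1 siRNA array against 3 controls, it was 1.86 (3.63-fold) and 1.75 (3.37-fold). Leaving out each array in turn gave 1.72 to 1.84 for Pramel37 and 1.41 to 1.62 for Pramel39.

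**Figure D1:**
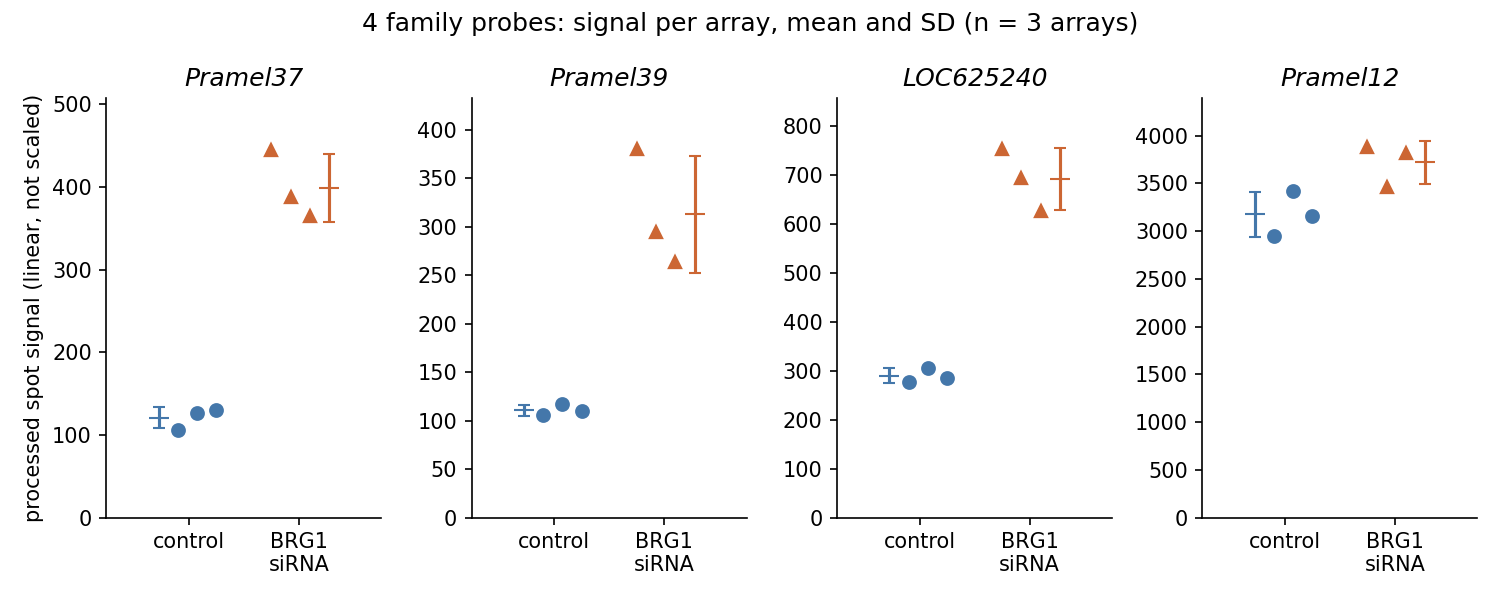
Processed spot signal (linear scale, before scaling between arrays) of 4 PRAME-like probes; circles are the 3 control arrays, triangles the 3 BRG1 siRNA arrays, and the bars give the mean and SD of each group. Pramel37, Pramel39 and LOC625240 sit at 106 to 131, 106 to 117 and 276 to 307 in controls against 364 to 444, 264 to 380 and 627 to 754 with BRG1 siRNA, while the Pramel12 groups lie close together.

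LOC625240, which the rule did not pick, also rose. Its signals were 276, 307 and 286 on the control arrays and 754, 695 and 627 on the BRG1 siRNA arrays. The lowest BRG1 siRNA array was far above the highest control array. The level rose from -2.87 ± 0.05 (SD, n = 3) to -1.57 ± 0.08 (SD, n = 3), a change of 1.30 ± 0.06 (SE, log2), 2.46-fold (limma adjusted p over all probes = 0.00117), where 8.6% of tested probes were raised and 18.5% had every BRG1 siRNA array above every control array. LOC625240 kept its call wherever the change rests on more than 1 BRG1 siRNA array, with limma adjusted p from 5.0e-05 to 0.0310. Over all 18 alternatives its change was 2.09- to 2.82-fold, the largest with spike-in scaling. On slide 1 alone, where 1 BRG1 siRNA array faces 3 controls, the change was 2.57-fold. With slide as a fixed block it was the same, since slide 2 holds no control array. In both settings the change holds no replicate check of the BRG1 siRNA group, and on slide 1 alone only the controls give the spread.

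Pramel12 rose by a small amount. It gave signals of 2950, 3423 and 3156 on the control arrays and 3878, 3462 and 3820 on the BRG1 siRNA arrays. The groups did not overlap, but the nearest pair of arrays differed little. The change in level was 0.27 ± 0.06 (SE, log2), 1.21-fold (limma adjusted p = 0.0251). The call was lost in 9 of 18 alternatives, with adjusted p between 0.00597 and 0.135 over all of them, among them slide as a block (0.135), slide 1 alone (0.110), the omission of any 1 control array (0.0706, 0.0962 and 0.0889 without replicates 1, 2 and 3) and the omission of BRG1 siRNA replicate 1 (0.0755).

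Of the 6 genes matched by name or description, 2 were bright enough to be tested. None passed the threshold in either direction with limma, and none had an unadjusted p under 0.05, which 35.4% of all tested probes had. The background is 8.6% of tested probes for a rise and 11% for a fall. Both tested genes are named next, with their values.

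Pramel7, the ES cell member that acts on UHRF1, gave signals of 267, 161 and 144 on the control arrays and 280, 251 and 257 on the BRG1 siRNA arrays. Control replicate 1 lay within the range of the BRG1 siRNA arrays by signal and above all 3 once scaled, and the other two controls lay below them. The level was -3.53 ± 0.57 (SD, n = 3) in controls and -2.97 ± 0.04 (SD, n = 3) with BRG1 siRNA, a difference of 0.56 ± 0.27 (SE, log2) that did not pass the test (limma adjusted p = 0.207). The call depends on that 1 array: without control replicate 1 the difference was 0.89 with an adjusted p of 0.00645, and with spike-in scaling it was 0.76 with an adjusted p of 0.0490, while the other 16 alternatives did not call it, and adjusted p ran from 0.00645 to 0.496 over all 18.

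Pramel13 gave signals from 14807 to 17315 on the 3 control arrays and from 15508 to 16657 on the 3 BRG1 siRNA arrays. Once scaled, the BRG1 siRNA arrays all lay above the controls, at 2.98 ± 0.04 against 2.90 ± 0.01 (SD, n = 3 each). The difference of 0.08 ± 0.04 (SE, log2) did not pass the test (limma adjusted p = 0.233), and groups were apart in this direction for 18.5% of all tested probes and in the other for 23.1%.

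Pramel6, Pramel4, Pramel1 and Pramel were near background, and no difference was detectable at these signals. Pramel6, the neighbour of Pramel7 on chromosome 2, had levels of -4.95, -4.01 and -5.65 on the control arrays and -5.51, -5.30 and -4.48 with BRG1 siRNA, above background on 2 arrays of each group. Pramel4 was above background on 0 control arrays and on 2 BRG1 siRNA arrays, with levels of -5.71, -6.53 and -5.56 against -6.84, -4.72 and -5.13. Pramel1 was above background on 2 control arrays and 1 BRG1 siRNA array, with levels of -4.12, -5.32 and -4.84 against -6.17, -5.85 and -4.43. In all 3 genes the groups overlapped. Pramel on chromosome X had levels of -4.47, -6.43 and -3.60 against -6.12, -4.53 and -4.98, above background on 2 arrays of each group, and also overlapped.

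**Figure D2:**
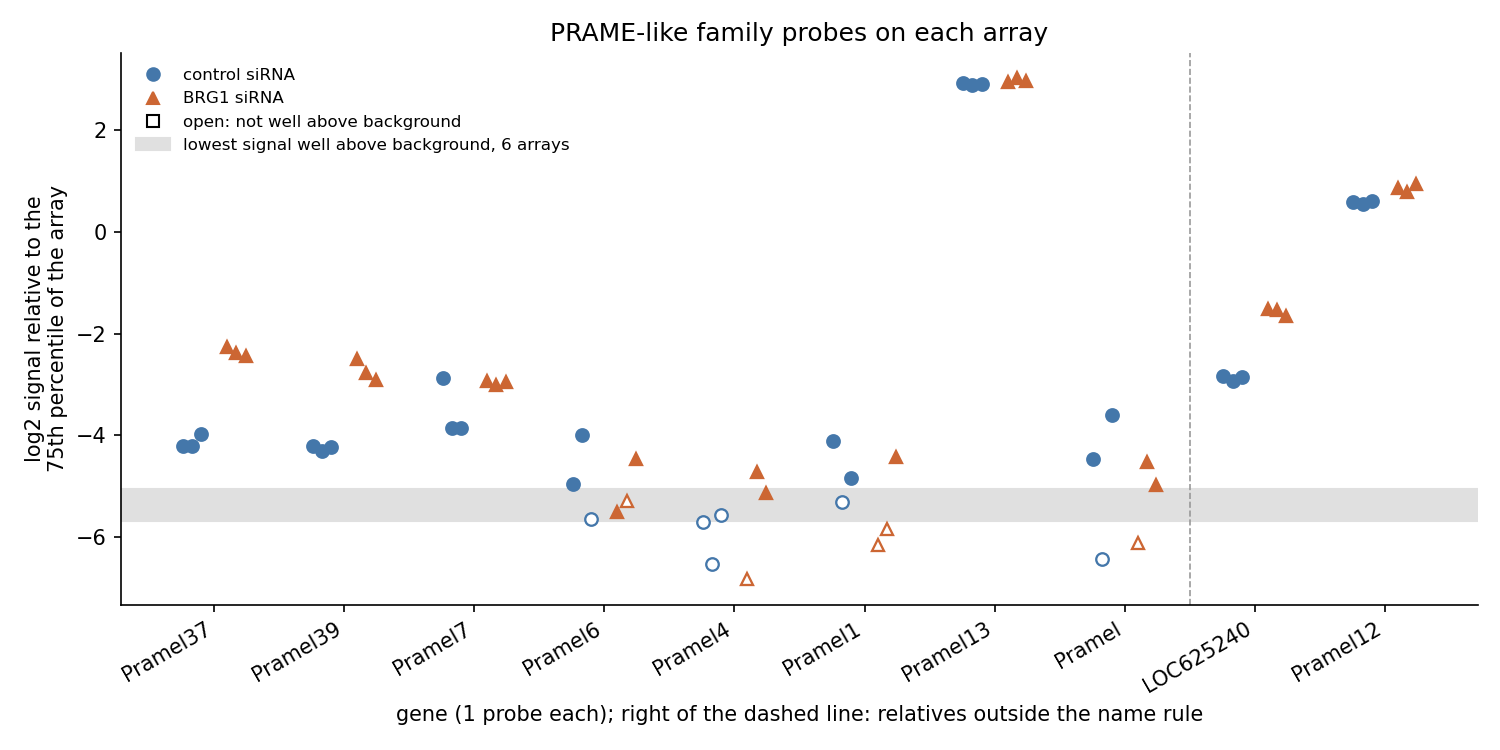
Level of each PRAME-like probe on each array (log2 signal minus that of the 75th percentile on the same array); circles are control, triangles BRG1 siRNA, open symbols are not well above background on that array, and the grey band spans the lowest signal well above background on the 6 arrays. Pramel37, Pramel39 and LOC625240 separate by group well above the band, Pramel7 overlaps through control replicate 1, and Pramel6, Pramel4, Pramel1 and Pramel scatter around the band.

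Of the other 7 relatives, Pramel5, Prame, Pramel29, Pramel34 and Pramel48 were well above background on 0 of 6 arrays. Pramel32 was above background on 1 control array, and Pramel27 on 1 array of each group. Pramel48 is placed between Pramel37 and Pramel39 in the mm7 coordinates, 302.336 kb from the Pramel37 probe. In GRCm38.p6 the order differs, with the Pramel48 promoter at 95456556, beyond that of Pramel39 at 94306747. The levels of Pramel48 were -6.09, -6.52 and -6.72 in controls and -6.52, -6.53 and -5.45 with BRG1 siRNA. AA792892, another gene with a probe within 500 kb of Pramel37 or Pramel39 in mm7, was above background on all 6 arrays. Its levels were -1.79, -2.51 and -2.37 in controls and -2.36, -2.44 and -1.94 with BRG1 siRNA, so that the groups overlapped (difference -0.02 ± 0.23 SE, limma adjusted p = 0.952). The remaining 2 probes in that window, for NAP103317-1 and TC1489624, were above background on at most 2 arrays of a group and were not tested. Of the probes tested in this stretch of chromosome 5, those of Pramel37, Pramel39 and LOC625240 were higher with BRG1 siRNA and that of AA792892 overlapped.

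**Figure D3:**
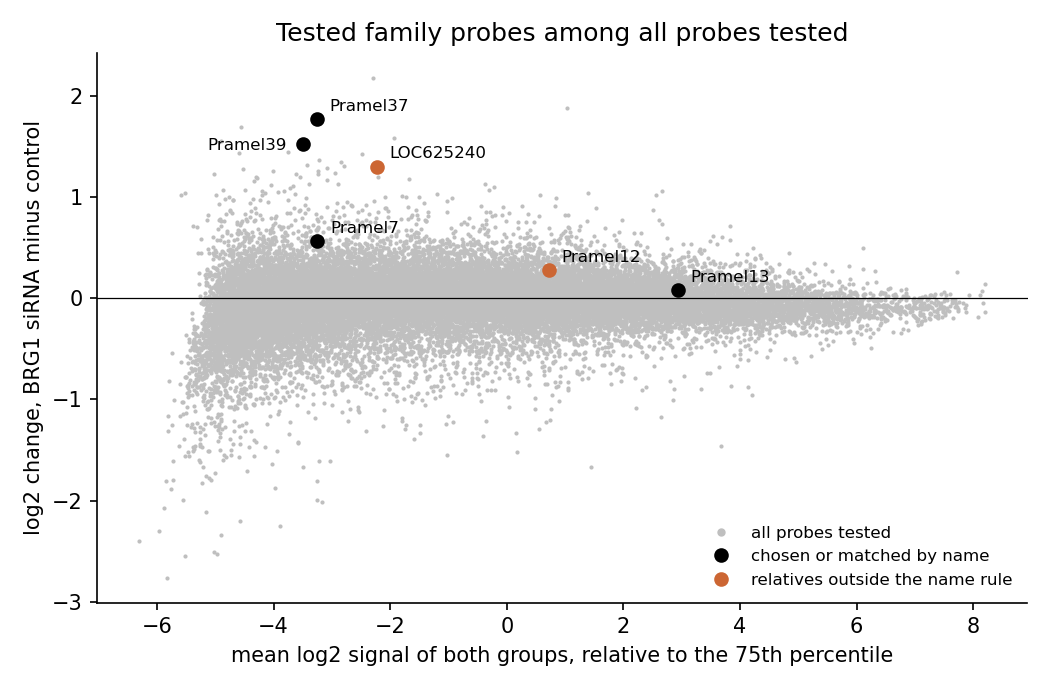
Log2 change (BRG1 siRNA minus control) against the mean level of both groups for all 26257 probes tested (grey), with the tested members in black and the tested relatives LOC625240 and Pramel12 in orange. Pramel37 (1.77), Pramel39 (1.52) and LOC625240 (1.30) lie near the upper edge of the cloud at low to middle levels, and Pramel13 (0.08) lies in the cloud near the zero line.

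The promoters of Pramel37 and Pramel39, the genes chosen for their rise, were read from RefSeq's GRCm38.p6 table, 250 bases before to 50 bases after the start site. They are printed 5′ to 3′ on the minus strand. Capitals mark TATAAA, the TATA box, and GGGTGTGG, a GT-rich motif of the kind that KLF and SP factors bind, which was chosen after the sequences had been seen. Both strands were searched, and the motifs do not overlap.
Pramel37 promoter, chr5:94070496-94070795: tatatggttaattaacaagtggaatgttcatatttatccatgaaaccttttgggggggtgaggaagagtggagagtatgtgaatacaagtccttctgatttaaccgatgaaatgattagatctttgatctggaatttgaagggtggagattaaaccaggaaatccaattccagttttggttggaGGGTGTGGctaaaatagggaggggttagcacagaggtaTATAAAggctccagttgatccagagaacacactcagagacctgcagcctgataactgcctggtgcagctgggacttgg
Pramel39 promoter, chr5:94306747-94307046: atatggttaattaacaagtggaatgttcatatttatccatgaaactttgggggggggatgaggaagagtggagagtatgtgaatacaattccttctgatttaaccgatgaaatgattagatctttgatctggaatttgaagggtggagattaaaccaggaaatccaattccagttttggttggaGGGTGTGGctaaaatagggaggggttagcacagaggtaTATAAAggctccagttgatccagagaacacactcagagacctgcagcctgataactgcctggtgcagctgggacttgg

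The alignment of the Pramel37 and Pramel39 promoters had 98.7% identical bases. In both, TATAAA begins 28 bases and GGGTGTGG 66 bases before the start site. Among the 39 family promoters in the table, 5 were over 90% identical to that of Pramel37, at 93.7% to 100%. These are Pramel39, Pramel43, Pramel46, Pramel49 and Pramel50, all on chromosome 5. The other 33 family promoters, on 4 chromosomes, were 57% to 66% identical to it. TATAAA was found in 13 of 39 family promoters (33.3%) and in 13.6% of 32851 mouse promoters of the same length, and GGGTGTGG in 12 of 39 (30.8%) and in 3.56%. All 6 promoters of the near-identical group, Pramel37 included, hold both. They make up 6 of the 13 and 6 of the 12, so the family shares rest in part on copies of nearly the same sequence. TTCNNNGAA, the core of STAT binding sites, was in 0 of 39 family promoters and in 8.30% of all, and TGCACAC, a motif reported for ZSCAN4, was in 0 of 39 and in 4.40%. Both promoters contain 1 CG dinucleotide, where the median promoter contains 7. A match to these letters is a description of the sequence only.

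**Figure D4:**
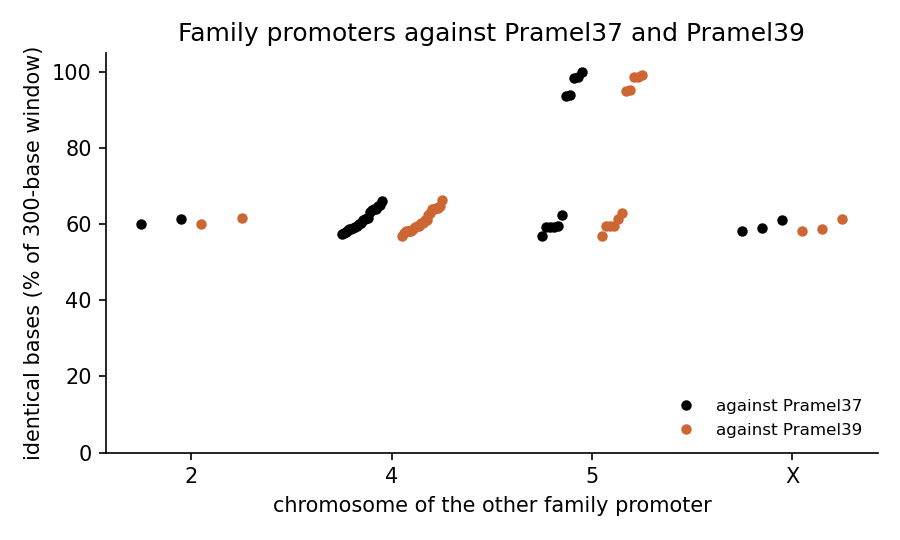
Identical bases, in percent of the 300-base window, between each of the other family promoters and that of Pramel37 (black) or Pramel39 (orange), arranged by the chromosome of the other promoter. A group on chromosome 5 lies above 90%, and all others on chromosomes 2, 4, 5 and X lie between 57% and 66.3%.

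Over the 6 arrays, the probes whose pattern was most like the mean of Pramel37 and Pramel39 were looked for. Besides these genes, 1178 tested probes had an SD of at least 0.5, and only those whose symbol is no clone or accession name were ranked. Among the ranked probes Zscan4c, a gene of the two-cell embryo and of a rare state of ES cells, came first with a Pearson correlation of 0.997. It was followed by Sema3e (0.994), Runx1t1 (0.993), Nrg1 (0.992), Zscan5b (0.992) and Pdzd2 (0.990), which were 1.88-, 2.09-, 2.08-, 2.39- and 3.00-fold higher with BRG1 siRNA. LOC625240, whose name kept it out of the ranking, had a slightly higher correlation with the same profile, 0.9974 against 0.9968 for Zscan4c. These correlations describe 6 arrays that fall into 2 groups, so they mostly reflect the difference between the groups.

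Genes that are known to work with PRAME-like proteins, or to belong to the settings in which the family is expressed, were listed and read from the same fit with 1 probe a gene, against the background of 8.6% raised, 11% lowered and a median change of -0.03. The CUL2 ligase partners of PRAME proteins showed no call. All 8 (Cul2, Rbx1, Elob, Eloc, Nedd8, Ube2m, Cand1 and Vhl) were tested, 0 passed, 0 had an unadjusted p under 0.05, and the median change was -0.04. Elob, an elongin subunit that links such receptors to the cullin, differed by 0.12 ± 0.05 (SE, log2; adjusted p = 0.157).

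Of 8 genes of DNA methylation, 2 were raised and 1 lowered, with a median of 0.07. Uhrf1, whose protein is the target of Pramel7, differed by 0.06 ± 0.05 (SE, log2; adjusted p = 0.379), with overlapping groups. Dnmt3l, a cofactor of de novo methylation, was 1.21-fold higher (adjusted p = 0.0129), Uhrf2 1.17-fold higher (adjusted p = 0.0399), and the de novo enzyme Dnmt3a 1.19-fold lower (adjusted p = 0.0127). These 3 calls were lost in 8 to 12 of the 18 alternatives, slide as a block and median scaling among them.

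Of 14 genes of retinoic acid signalling, 2 were raised and 4 lowered, with a median of -0.07. Cyp26a1, the enzyme that clears retinoic acid, was 1.85-fold lower (adjusted p = 0.0064), the retinaldehyde reductase Dhrs3 1.66-fold lower (adjusted p = 0.00523) and the binding protein Crabp1 1.65-fold lower (adjusted p = 0.00294). The receptor gene Rxra was 1.34-fold lower and the receptor gene Rarg 1.50-fold higher, while Stra8, a retinoic acid target of germ cells, was 1.19-fold higher. Crabp1, Dhrs3 and Rarg lost their calls on slide 1 alone, Cyp26a1 there and with slide as a block, Rxra with median or spike-in scaling and on slide 1 alone, and Stra8 in 10 of 18 alternatives.

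Of 7 measured genes of LIF and STAT3 signalling, 3 were raised and 0 lowered, with a median of 0.01. The kinase gene Jak1 was 1.43-fold higher (adjusted p = 0.00495), the STAT3 target Klf4 1.27-fold higher and the receptor gene Lifr 1.15-fold higher, while Stat3 itself differed by 0.01 ± 0.06 (SE, log2; adjusted p = 0.949). Jak1 lost its call with slide as a block and on slide 1 alone, and Klf4 and Lifr in 8 and 11 of 18 alternatives.

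Of 7 tested two-cell-like genes, from a list of 16 names, 5 were raised and 0 lowered, with a median of 0.50. Zscan4c was 2.03-fold higher, at levels of 0.08, 0.06 and 0.06 in controls and 1.18, 1.12 and 0.96 with BRG1 siRNA (adjusted p = 0.00174). It kept its call wherever the change rests on more than 1 BRG1 siRNA array. Its groups did not overlap. Usp17la, a deubiquitinase gene, was 1.83-fold higher, Tcstv3 1.41-fold, Gm428 1.41-fold and Tcstv1 1.39-fold. Zfp352 and Eif1a differed by 0.09 and -0.06 with overlapping groups. Usp17la lost its call on slide 1 alone, Tcstv3 and Gm428 there and with slide as a block, and Tcstv1 in 9 of 18 alternatives. None of 6 PRC2 genes, which encode the Polycomb complex that methylates histone H3, passed the test (median 0.05), with Suz12 at 0.18 ± 0.05 (SE, log2; adjusted p = 0.0504), the 1 gene of the list with an unadjusted p under 0.05.

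Some markers of other cell types moved with the groups as well, and their part in the rise of the PRAME-like probes was not tested. Among 8 measured germ cell markers, which name cells in which the family is known, 5 were raised (Hormad1 1.59-fold, Stag3 1.46-fold, Ddx4 1.44-fold, Mael 1.43-fold and Stra8) and 1, Sycp3, was 1.36-fold lower. Sycp3 lost its call in 5 and Stag3 in 3 of 18 alternatives, while Hormad1, Ddx4 and Mael lost theirs on slide 1 alone. The summed signal of the 8 germ cell markers, in multiples of the 75th percentile, was 6.63 to 6.93 in controls and 9.00 to 9.22 with BRG1 siRNA, and all 8 were above background. Of 10 fibroblast markers, as a sign of feeder cells, 7 were lowered (Col1a1, Col3a1, Thy1, S100a4, Fn1, Twist2 and Prrx1) and 0 raised, with S100a4 2.12-fold lower. Twist2, Col1a1 and Prrx1 lost their calls in 12, 9 and 8 of 18 alternatives, with spike-in scaling among those of Twist2 and Col1a1, and the other 4 in 1, slide 1 alone. The fibroblast sum went from 42.2 to 45.9 in controls to 37.8 to 40.2 with BRG1 siRNA. Its largest part came from Vim, which was not called, at mean levels of 4.61 in controls and 4.73 with BRG1 siRNA. Such sums are led by the brightest probes, and since levels of different probes are not comparable, they do not measure a share of cells. Of 5 tested trophoblast markers 2 were raised (Hand1 and Tfap2c) and 3 lowered (Cdx2, Eomes and Krt7), with a median change of -0.66. The sums of the list were 9.01 to 9.72 in controls and 9.94 to 10.5 with BRG1 siRNA. Most of each sum came from Tfap2c, at mean levels of 2.86 and 3.16. Tfap2c lost its call in 9 of 18 alternatives and the other 4 theirs on slide 1 alone, and Elf5 was not above background on any array. Of 5 primitive endoderm markers 1, Dab2, was lowered, a call lost in 10 of 18 alternatives, with sums of 0.534 to 0.727 and 0.529 to 0.579. In RNA of a whole culture, more cells of a type and more RNA per cell cannot be told apart, which holds for the PRAME-like probes too.

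**Figure D5:**
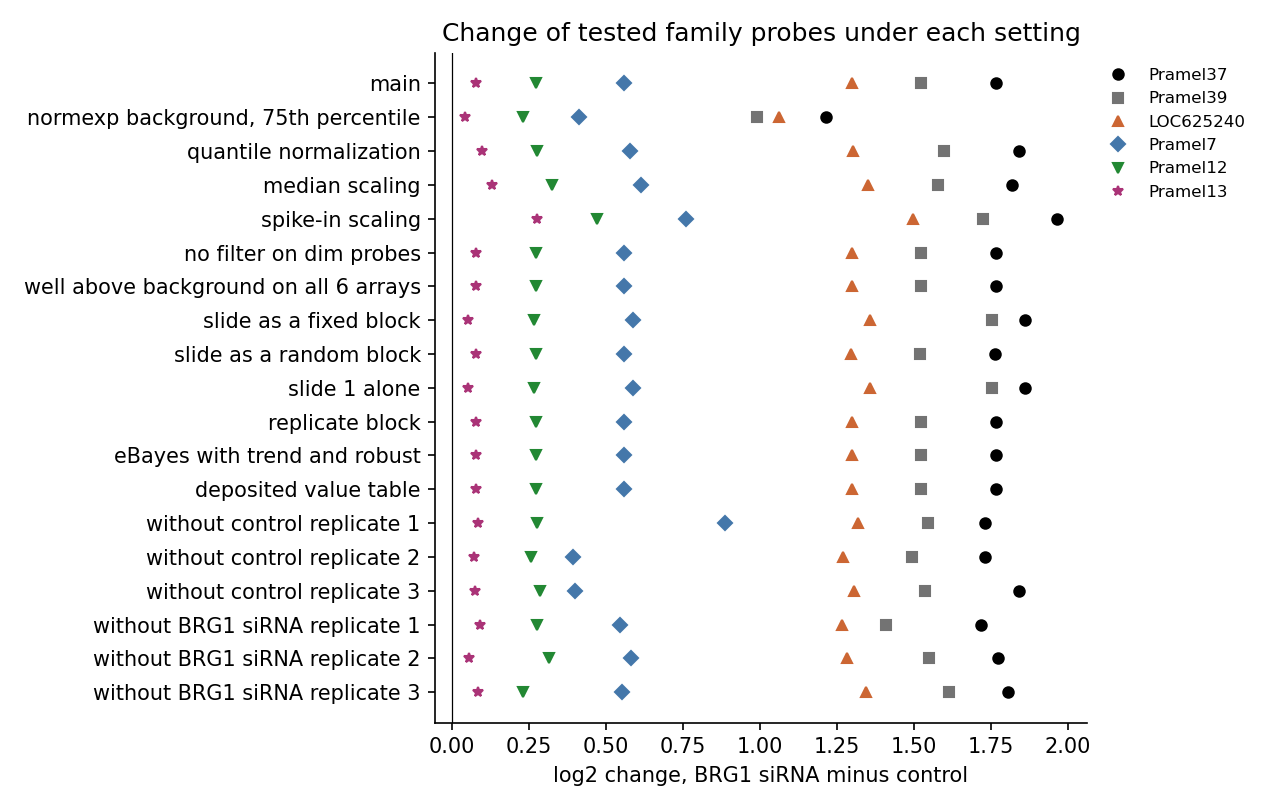
Log2 change (BRG1 siRNA minus control) of the 6 tested PRAME-like probes under the chosen processing (top line, main) and each of 18 alternatives. Pramel37 and Pramel39 stay at or above 0.99 and LOC625240 at or above 1.06 in all of them, with the lowest values under normexp background correction, while Pramel7 moves to 0.89 without control replicate 1.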

How the data were processed

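Total RNA of 6 ES cell samples, 500 ng each, was labelled with Cy3 and hybridised to single-colour Agilent arrays, per the labels' protocols. The deposited scanner files hold spot intensity on a linear scale, made by the authors with Agilent Feature Extraction 9.5.3.1 on design 014868 with mm7 positions, per the file headers (9.5 per the submitters' processing notes). The signal used was already background-corrected by that software and not normalized between arrays. The deposited value table was identical to it (largest difference 0), linear and uncentred, with medians of 162 (161.8) to 186 (185.5).

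From it, log2 values were taken and scaled array by array, by subtracting the 75th percentile over all non-control spots. Of 45018 spots per array, 1639 control spots and spots marked as outliers were left out. A probe was tested where all 3 arrays of either group had it well above background. Groups were compared probe by probe with limma 3.58.1 (lmFit and eBayes under R 4.3.3), and two-sided p-values were adjusted by Benjamini-Hochberg over all probes tested. The method was tested on simulated data. Gene symbols were updated through RefSeq accessions of GRCm38.p6, used for names and promoters only.

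The members and gene lists were chosen with earlier results of these data known, so none is independent evidence of a direction. Named are all members and relatives, all called genes of the lists, genes within 500 kb of Pramel37 or Pramel39, and the 6 ranked probes most like them. No array was a copy of another, since any 2 arrays had at most 1 spot value in common. Slide 1 held the control arrays and BRG1 siRNA replicate 1, and slide 2 held BRG1 siRNA replicates 2 and 3, so slide and group are partly mixed. With slide as a fixed block, each change therefore rests on BRG1 siRNA replicate 1 against the controls. Precision is limited by the number of arrays. The replicate numbers are not known to pair the samples.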

Additional observations from a re-analysis of the deposited data

How the results depend on the processing

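Low signal and 3 arrays a group limit what could be seen: 4 members and 7 relatives lay too near background to be tested. The count of probes called, 5154, became 2031 with median scaling, 1856 with no filter on dim probes, 1267 with slide as a fixed block, 78 on slide 1 alone, and between 1634 (without control replicate 3) and 5707 (without BRG1 siRNA replicate 3) when 1 array was left out; without control replicates 1 and 2 it was 2918 and 1981, and without BRG1 siRNA replicates 1 and 2 it was 2535 and 2157. Among members matched by name or description, the count raised, 0, became 1 (Pramel7) with spike-in scaling and ran from 0 to 1 with 1 array left out, the 1 being without control replicate 1, and 0 were lowered under all settings run. The directions of Pramel37, Pramel39, LOC625240, Pramel12, Pramel7 and Pramel13 did not change in any of the 18 alternatives. Some of these settings could not change a direction, since they leave the change itself as it was. These are the other filters on dim probes, the replicate block, the other eBayes setting and the deposited value table. Slide as a fixed block and slide 1 alone give the same change. Pramel37 and Pramel39 were chosen for their direction. The cause of the shifts in the counts was not tested.

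With the replicate number as a block, 2150 probes were called, 0 of them members matched by name or description. LOC625240 kept its call (adjusted p = 0.0310) and Pramel12 lost it (0.0606). The numbers are not known to pair the samples. For each probe the mean of the group was first subtracted, and the remaining deviations of the arrays were correlated. These deviations correlated at -0.29, 0.12 and 0.03 for same-numbered samples. Those of control replicate 1 correlated best with those of BRG1 siRNA replicate 3 (0.32).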
